A study of Mus musculus with 9 samples.

Results

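Transcripts of 9 chemokines, the secreted or membrane-bound proteins that steer leukocyte migration, were followed in MLO-Y4 cells, a mouse line used as a model of osteocytes. The members were the genes named Cxcl1, Cxcl2, Cxcl5, Cxcl12, Cxcl16, Cx3cl1, Ccl2, Ccl5 and Ccl7 in the count table, 9 of 56748 genes listed. Of these, 7 had enough reads to be tested, among 13812 tested genes in all. Cxcl2 and Cxcl12 did not and are given as counts. The question was how the neutrophil-attracting CXC chemokines behaved beside the CC, membrane-anchored and homeostatic ones when the cells shared a medium with inflamed cartilage cells.

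RNA sequencing was performed on 9 libraries in 3 groups of 3. In the control group MLO-Y4 cells were co-cultured with unstimulated chondrocytes. In the stimulated groups the chondrocytes had received interleukin-1β (IL-1β) at 10 ng/ml for 6 h and were then washed with PBS. MLO-Y4 cells were co-cultured with these chondrocytes for 24 h or 48 h. All chondrocytes were primary cells of C57BL/6J pups in their first week of life. They sat in a transwell insert, so that soluble factors could pass but the cell layers stayed apart. The labels give no culture time for the control group, so stimulation and time cannot be told apart in a difference from control. No unstimulated group is labelled with either time, so the step from 24 h to 48 h has the same limit. For the 48 h libraries the line is labelled MLO-Y5, MLO-Y6 and MLO-Y7, although the protocol speaks of MLO-Y4 for every sample. The model is a single cell line, and nothing says that replicates came from separate cultures, so p-values measure only the spread between these libraries.

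Chemokines are grouped by the spacing of their first cysteines into CXC, CC and CX3C families, and they signal through G protein-coupled receptors on migrating cells. CXC chemokines of the Cxcl1 type attract neutrophils through Cxcr2, Ccl2 and Ccl7 draw monocytes through Ccr2, and Cxcl12 is the constitutive ligand of Cxcr4 that holds haematopoietic cells in bone marrow. Many of the inflammatory chemokine genes are known targets of NF-kB, and their transcripts are typically short-lived.

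Total counts ranged from 12250628 to 18515456 per library, highest in the 48 h group, and TMM factors from 0.983 to 1.02. Levels are given as CPM, that is, counts divided by library size after TMM scaling, which corrects library sizes for differences in composition. Of 12 osteocyte markers, Dmp1 had at most 6 counts and Sost at most 1 in any library, and Mepe and Fgf23 had none. These markers of mature osteocytes were thus near or at 0. The other markers of the list, Gja1, Pdpn, Phex, Cd44, Col1a1, Runx2, Alpl and Bglap, were present. The list summed to between 3329 and 3533 CPM in control, 3436 and 3484 CPM at 24 h and 4109 and 4185 CPM at 48 h. Chondrocyte markers summed to between 1681 and 1716 CPM in control, 1565 and 1649 CPM at 24 h and 2127 and 2216 CPM at 48 h. Most of this sum was Prg4, Col2a1 reached at most 7 counts, and 5 of the 12 markers, Acan among them, were at 0 in every library. Sox9 averaged 112 CPM in control, 104 CPM at 24 h and 124 CPM at 48 h. Comp had 3, 3 and 7 counts in control and 21, 13 and 12 at 48 h. Matn3 and Col11a2 were also present. Of the 5 tested markers, 3 were called higher at 48 h than in control and 1 lower, beside 22.0% and 24.4% of all tested genes. Myeloid markers summed to between 18.7 and 20.9 CPM in control, 24.7 and 27.0 CPM at 24 h and 21.3 and 24.8 CPM at 48 h. Most of that sum was Cd14, Ptprc had at most 1 count in a library and Adgre1 had none. Csf1r averaged 3.31 CPM in control, 1.84 CPM at 24 h and 3.24 CPM at 48 h, and Cd68 2.74, 2.40 and 2.89 CPM. Lyz2 had at most 11 counts in a library and Fcer1g at most 14. The 6 endothelial markers summed to at most 0.521 CPM in any library. The part of these marker differences in the chemokine results was not tested. In such bulk samples, fewer cells of a type and less RNA per cell cannot be told apart.

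The genes of the neutrophil-attracting CXC chemokines lie together on chromosome 5 (coordinates on GRCm39). Cxcl5 spans chr5:90907219-90909483, Cxcl1 chr5:91039100-91040974 and Cxcl2 chr5:91051730-91053797, each with 4 exons on the plus strand. Cxcl3, a Cxcr2 ligand that is no member of the set, lies between Cxcl5 and Cxcl1. Their promoters, 250 bases before to 50 bases after the annotated start site, are shown because they share a run of bases and the 3 tested genes among them rose at 24 h, and that of Ccl5 because it holds another match to the same motif. The sequences were read 5′ to 3′ from the GRCm39 genome at GENCODE starts, at chr5:90906987-90907286 for Cxcl5, chr5:91038844-91039143 for Cxcl1, chr5:91051480-91051779 for Cxcl2, chr5:90933712-90934011 for Cxcl3, all on the plus strand, and at chr11:83421296-83421595 on the minus strand for Ccl5. Capitals mark the bases that match the NF-kB consensus.
Cxcl5: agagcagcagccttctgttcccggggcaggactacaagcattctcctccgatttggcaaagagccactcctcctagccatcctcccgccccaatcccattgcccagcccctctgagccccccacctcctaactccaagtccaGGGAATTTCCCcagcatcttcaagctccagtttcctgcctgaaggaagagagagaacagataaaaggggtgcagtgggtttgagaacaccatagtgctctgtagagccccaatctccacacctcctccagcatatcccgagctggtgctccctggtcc
Cxcl1: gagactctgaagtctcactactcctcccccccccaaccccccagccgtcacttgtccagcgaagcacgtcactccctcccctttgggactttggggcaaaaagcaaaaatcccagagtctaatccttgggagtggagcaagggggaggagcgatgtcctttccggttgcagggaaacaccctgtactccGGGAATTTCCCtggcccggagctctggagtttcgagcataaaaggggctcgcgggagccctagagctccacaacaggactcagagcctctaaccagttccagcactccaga
Cxcl2: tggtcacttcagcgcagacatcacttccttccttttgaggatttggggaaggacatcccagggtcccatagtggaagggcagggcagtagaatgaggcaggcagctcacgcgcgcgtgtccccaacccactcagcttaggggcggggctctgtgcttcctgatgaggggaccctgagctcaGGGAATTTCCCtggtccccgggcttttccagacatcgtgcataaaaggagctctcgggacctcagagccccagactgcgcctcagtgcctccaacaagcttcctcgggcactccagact
Cxcl3: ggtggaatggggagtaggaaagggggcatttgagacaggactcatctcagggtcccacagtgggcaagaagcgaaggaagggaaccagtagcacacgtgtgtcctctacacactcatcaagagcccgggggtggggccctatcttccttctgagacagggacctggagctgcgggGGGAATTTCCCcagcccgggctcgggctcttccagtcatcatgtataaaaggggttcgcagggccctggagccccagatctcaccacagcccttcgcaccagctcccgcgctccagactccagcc
Ccl5: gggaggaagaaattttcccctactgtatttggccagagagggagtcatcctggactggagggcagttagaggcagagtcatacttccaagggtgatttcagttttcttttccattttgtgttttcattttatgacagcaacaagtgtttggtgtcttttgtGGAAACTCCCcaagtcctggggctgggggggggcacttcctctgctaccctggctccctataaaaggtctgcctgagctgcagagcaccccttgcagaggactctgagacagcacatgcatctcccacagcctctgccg

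The promoters of Cxcl5, Cxcl1, Cxcl2 and Cxcl3 held the same run of 11 bases, GGGAATTTCCC, which starts at positions -108, -61, -69 and -75 from the start site, respectively. The run matches the NF-kB consensus at overlapping positions, a base apart. It was found after these promoters had been compared, and none of the 6 other members held it. Searched on both strands, it occurred in 11 of 21630 promoters of protein-coding genes of the same length, or 0.0509%. Cxcl5, Cxcl1, Cxcl2 and Cxcl3 are related neighbours on chromosome 5, so they are not independent occurrences of the run. Of these 11 genes, 5 were tested. The 3 called higher at 24 h (Cxcl5, Cxcl1 and Cxcl3) are those in which the run was found, so their number is fixed by that choice, and the others, Rhoc and Zfp84, were not called (log2 fold changes -0.03 and 0.14). The wider NF-kB consensus, searched on both strands, occurred in 4.85% of the promoters. Among the members it was found in those of Cxcl1, Cxcl2 and Cxcl5 and, in another spelling at position -89, in that of Ccl5. The AP-1 motif TGANTCA, present in 7.16% of promoters on either strand, occurred among the members in Ccl7 alone, at -63. A TATAAA box, searched on the sense strand and present in 8.98% of promoters, was found in those of Ccl7 at -24, Ccl5 at -31 and, outside the members, Cxcl3 at -32. A match is a stretch of letters and says nothing about whether a factor was bound.

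At 24 h, transcripts of 4 of the 7 tested chemokines rose and 1 fell relative to control. Cxcl5 and Cxcl1 rose most, Ccl5 and Ccl2 less, and Cx3cl1 fell. Across all tested genes, 3.25% were called higher and 2.90% lower in this comparison (edgeR quasi-likelihood test, Benjamini-Hochberg adjusted p under 0.05). Libraries of both groups stayed apart for 4 members that were higher and 2 that were lower, compared with 10.3% and 11.2% of all tested genes. The median log2 fold change of the 7 members was 0.41, against -0.00 for all genes.

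At 48 h, 3 of the 7 were higher than control and 3 lower. Cxcl5, Cxcl16 and Ccl5 were the higher ones, Ccl7, Ccl2 and Cx3cl1 the lower ones, and Cxcl1 was not called. Here 22.0% of all tested genes were called higher and 24.4% lower. The groups did not overlap for the same 3 higher and 3 lower members, compared with 25.7% and 27.4% of all tested genes. The median log2 fold change of the members was -0.09.

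Between the stimulated groups, 2 members were higher at 48 h than at 24 h (Ccl5 and Cxcl16) and 5 were lower (Cxcl1, Cxcl5, Ccl2, Ccl7 and Cx3cl1). Of all tested genes, 23.7% were called higher and 25.4% lower. The groups did not overlap for any of the 7, compared with 29.1% of all tested genes in the higher and 30.3% in the lower direction. The median log2 difference of the members was -1.01. In a joint test of the 3 groups all 7 were called, with adjusted p from 1.34e-14 for Cxcl5 to 6.08e-06 for Cxcl16, beside 51.9% of all tested genes. The comparisons share libraries, so their counts are not independent of each other.

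**Figure D1:**
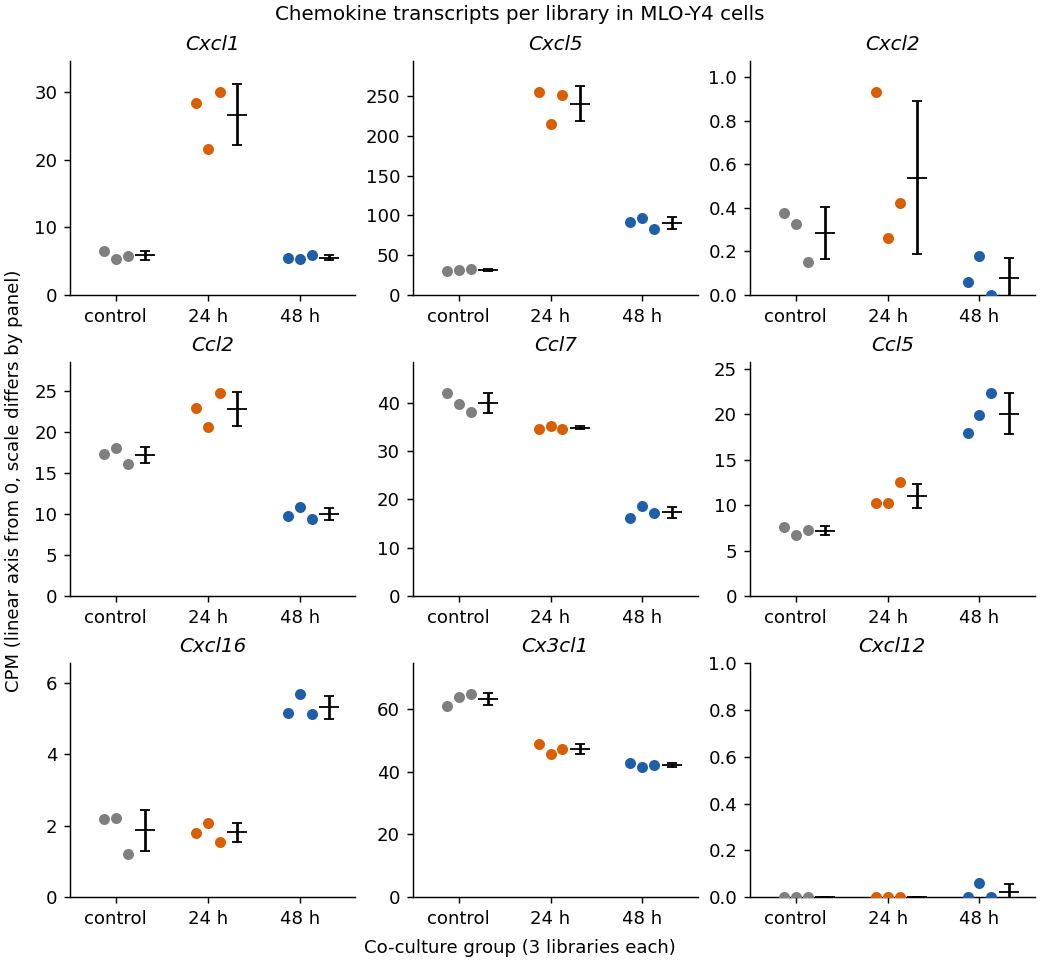
Points show CPM of each chemokine in each of 3 libraries per group, and the bar beside them the mean ± SD, on linear axes that start at 0 and differ in scale between panels. Cxcl1 and Cxcl5 peaked at 24 h, Ccl5 and Cxcl16 were highest at 48 h, and Ccl7 and Cx3cl1 were highest in control.

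Cxcl5, a neutrophil attractant known as LIX in the mouse, was the most responsive member at 24 h. Its level was 30.5, 31.1 and 33.1 CPM in the control libraries, 256, 215 and 251 CPM at 24 h and 91.4, 97.1 and 82.4 CPM at 48 h. The 3 groups did not overlap, with every 48 h library between control and 24 h. The rise at 24 h was 7.62-fold (log2 fold change 2.93, SE 0.08, adjusted p = 3.26e-14). At 48 h Cxcl5 was still 2.86-fold above control (log2 1.52, SE 0.08, adjusted p = 4.34e-11). It had fallen by 1.41 on the log2 scale from its 24 h level (SE 0.07, adjusted p = 1.77e-11).

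Cxcl1, also called KC, shares the receptor Cxcr2 with Cxcl5. It measured 6.53, 5.23 and 5.79 CPM in control, 28.3, 21.5 and 30.1 CPM at 24 h, and 5.43, 5.27 and 5.87 CPM at 48 h. All 24 h libraries stood above the others, and the control and 48 h libraries overlapped. The rise at 24 h was 4.51-fold (log2 2.17, SE 0.14, adjusted p = 6.16e-09). From 24 h to 48 h Cxcl1 fell by 2.26 on the log2 scale (SE 0.13, adjusted p = 1.37e-10). At 48 h the difference from control was -0.09 on the log2 scale, with a 95% confidence interval of -0.42 to 0.24 (adjusted p = 0.672).

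The courses of Cxcl1 and Cxcl5 were compared through the ratio of their counts in each library. Cxcl1 had 0.214, 0.168 and 0.175 counts per Cxcl5 count in control, 0.111, 0.100 and 0.120 at 24 h, and 0.0594, 0.0543 and 0.0713 at 48 h. The ratio was lower in each stimulated group than in control and lower at 48 h than at 24 h, with no overlap between groups. Each difference had an exact two-sided permutation p of 0.1, the smallest that 3 against 3 libraries allow (adjusted p = 0.129 over 9 ratio tests), so this permutation test could not reach 0.05 for any ratio.

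Cxcl2, also called MIP-2 and likewise a ligand of Cxcr2, was barely detected. It had 6, 4 and 2 counts in control, 14, 4 and 6 at 24 h and 1, 3 and 0 at 48 h. The 24 h counts overlapped those of control, and the highest value came from 1 library, the first 24 h replicate. It fell below the filter and was left out of the test. Of its 1062 stretches of 50 bases, 61 also occur in Cxcl3. The reads of the study were longer than such a stretch, and whether any read was shared by these genes was not tested.

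The CC chemokines lie on chromosome 11. Ccl2 spans chr11:81926397-81928279 and Ccl7 chr11:81936538-81938351, 8258 bases apart on the plus strand, and Ccl5 spans chr11:83416604-83421344 on the minus strand, 1478252 bases from Ccl7. Each has 3 exons. Ccl2 was highest at 24 h, Ccl5 at 48 h and Ccl7 in control.

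Ccl2, or MCP-1, is the main monocyte attractant acting on Ccr2. It measured 17.4, 18.1 and 16.1 CPM in control, 23.0, 20.6 and 24.8 CPM at 24 h and 9.77, 10.8 and 9.45 CPM at 48 h. The groups did not overlap, with 24 h above and 48 h below control. The rise at 24 h was 1.33-fold (log2 0.41, SE 0.10, adjusted p = 0.0138). This call was lost without 24 h replicate 1 (adjusted p = 0.0568) or 24 h replicate 3 (adjusted p = 0.0917). At 48 h Ccl2 was lower than control by -0.78 on the log2 scale (SE 0.10, adjusted p = 5.84e-06). It fell by 1.19 from 24 h to 48 h (log2, SE 0.10, adjusted p = 1.68e-08). Gm17268 overlaps Ccl2 on the opposite strand by 1883 bases and had 0 counts in every library.

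Ccl7, or MCP-3, is a close relative of Ccl2 that also acts on Ccr2. Its level was 42.1, 39.7 and 38.1 CPM in control, 34.6, 35.2 and 34.6 CPM at 24 h and 16.2, 18.5 and 17.1 CPM at 48 h. Each 24 h library lay below every control library, but the difference of -0.20 on the log2 scale (SE 0.07, adjusted p = 0.119) was not called. At 48 h Ccl7 fell by 1.21 from control (log2, SE 0.08, adjusted p = 3.78e-10), to 0.432 of the control level. It fell by 1.01 from 24 h to 48 h (log2, SE 0.08, adjusted p = 3.61e-09).

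The neighbours Ccl2 and Ccl7 were compared by their count ratio as well. Ccl2 had 0.413, 0.456 and 0.423 counts per Ccl7 count in control, 0.663, 0.586 and 0.717 at 24 h and 0.602, 0.586 and 0.551 at 48 h. The ratio was higher in both stimulated groups than in control without overlap (exact permutation p = 0.1 for each, the smallest possible). Between 24 h and 48 h the exact permutation p was 0.2.

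Ccl5, or RANTES, attracts T cells and monocytes, the latter in part through Ccr1. It measured 7.60, 6.70 and 7.30 CPM in control, 10.3, 10.2 and 12.5 CPM at 24 h and 17.9, 19.9 and 22.4 CPM at 48 h. The groups did not overlap and stood in the order control, 24 h, 48 h. Ccl5 was higher at 24 h by 0.60 on the log2 scale (SE 0.13, adjusted p = 0.00637). At 48 h it was 2.78-fold above control (log2 1.47, SE 0.12, adjusted p = 1.23e-08). The step from 24 h to 48 h was itself a rise of 0.87 (log2, SE 0.11, adjusted p = 3.40e-06).

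Ccl5 and Ccl2 therefore moved in opposite directions from 24 h to 48 h. Ccl5 had 0.437, 0.371 and 0.453 counts per Ccl2 count in control, 0.448, 0.495 and 0.503 at 24 h, and 1.84, 1.83 and 2.37 at 48 h. Only the 48 h libraries held more Ccl5 than Ccl2 counts. The exact permutation p was 0.1 for 48 h against each other group and 0.2 for 24 h against control.

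Cxcl16 and Cx3cl1 are made as membrane-anchored proteins that can hold cells in place or, after cleavage by Adam10 or Adam17, be released as attractants. Cxcl16, the ligand of Cxcr6, spans chr11:70344809-70350810 on the minus strand. It measured 2.20, 2.21 and 1.20 CPM in control, 1.80, 2.08 and 1.55 CPM at 24 h and 5.14, 5.69 and 5.12 CPM at 48 h. Control and 24 h overlapped, and all 48 h libraries were higher. At 24 h the log2 difference was -0.05, with a 95% confidence interval of -0.60 to 0.50 (adjusted p = 0.954), so a moderate change in either direction was not detectable at this depth of 16 to 35 counts per library. At 48 h Cxcl16 was 2.82-fold above control (log2 1.50, SE 0.22, adjusted p = 2.47e-05). From 24 h to 48 h it rose by 1.54 (log2, SE 0.22, adjusted p = 1.39e-05). Zmynd15 overlaps it on the opposite strand by 552 bases and had at most 18 counts in a library.

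Cx3cl1, or fractalkine, is the ligand of Cx3cr1 and spans chr8:95498637-95509055 on the plus strand. It measured 61.0, 63.8 and 64.8 CPM in control, 48.9, 45.7 and 47.1 CPM at 24 h and 42.7, 41.4 and 42.0 CPM at 48 h. The groups did not overlap and stood in descending order. Cx3cl1 fell by 0.42 at 24 h (log2, SE 0.06, adjusted p = 0.000133). At 48 h it fell by 0.59 from control (log2, SE 0.06, adjusted p = 2.13e-07). The further step from 24 h to 48 h was -0.17 (log2, SE 0.06, adjusted p = 0.0279). This last call was lost when any 48 h replicate or 24 h replicate 1 or 3 was left out (adjusted p from 0.0508 to 0.117).

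Cxcl12, which spans chr6:117145496-117158328 on the plus strand, was at or near 0 in every library. It had 0 counts in 8 libraries and 1 count in the second 48 h replicate. A count of 0 allows up to 3 counts, or 0.160 to 0.245 CPM depending on the library, and covers counting error only. No change of this homeostatic ligand could be tested, so its comparison with the inflammatory members rests on the levels alone.

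**Figure D2:**
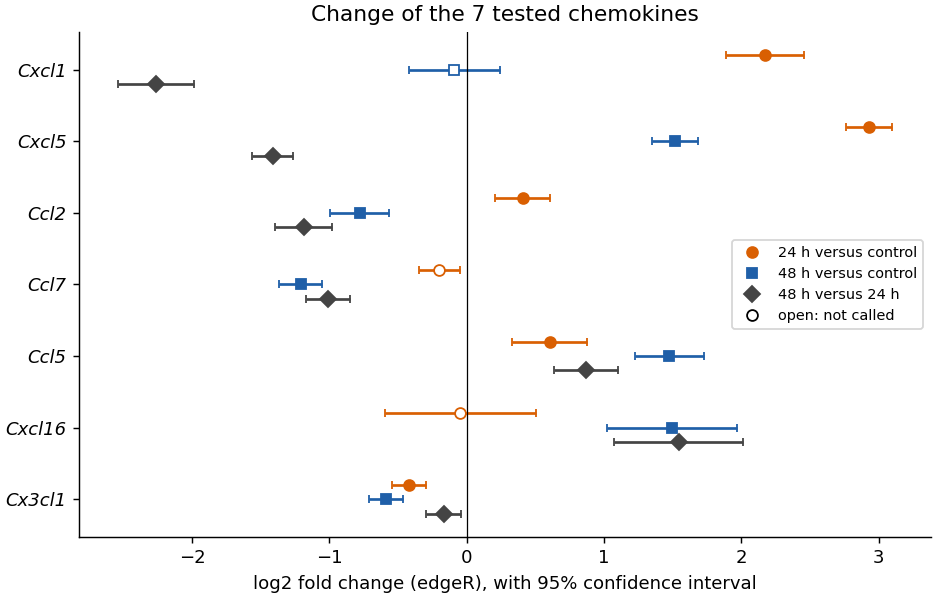
Log2 fold changes of the 7 tested chemokines with their 95% confidence intervals from edgeR, for 24 h versus control (circles), 48 h versus control (squares) and 48 h versus 24 h (diamonds), with open symbols where the adjusted p was not under 0.05. Cxcl1 and Cxcl5 lay far right at 24 h, at 2.17 and 2.93, while Ccl5 and Cxcl16 alone lay to the right for 48 h versus 24 h.

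Levels were compared between genes per kilobase of gene length (CPM per kb), as given in the count table. This length is not always that of a transcript. For Cxcl1 and Cxcl2 it was the whole gene span with introns, 1875 and 2068 bases. The canonical transcripts of Cxcl1, Ccl5 and Ccl7 held 910, 486 and 758 different stretches of 50 bases, beside lengths of 1875, 960 and 801. For Ccl2 and Cxcl5 there were 764 and 1492 such stretches, beside lengths of 1138 and 1863. A transcript is somewhat longer than its number of stretches. The order of genes within a group therefore depends on the length used, and other lengths were not tried. In control Ccl7 led with 49.9 CPM per kb, followed by Cxcl5, Cx3cl1 and Ccl2 at 16.9, 16.1 and 15.1, whose libraries overlapped between neighbours. Ccl5 at 7.50, Cxcl1 at 3.12, Cxcl16 at 0.619 and Cxcl2 at 0.138 CPM per kb came next, each apart from its neighbours. At 24 h Cxcl5 led with 129 CPM per kb, ahead of Ccl7 at 43.5 and Ccl2 at 20.0, and Cxcl1, Cx3cl1 and Ccl5 followed at 14.2, 12.0 and 11.5 with overlap between neighbours. At 48 h Cxcl5 still led at 48.5 CPM per kb, Ccl7 and Ccl5 overlapped at 21.6 and 20.9, and Cx3cl1 at 10.7, Ccl2 at 8.81, Cxcl1 at 2.95 and Cxcl16 at 1.76 each stood apart.

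The make-up of the chemokine transcripts was described by the share of each member in their sum. The 9 members summed to 109 ± 2.47 CPM per kb in control (SD, n = 3), 231 ± 16.5 at 24 h and 115 ± 4.89 at 48 h. The 48 h libraries lay just above the control libraries in this sum, and the 24 h libraries well above both. Cxcl5 supplied 15.5% ± 0.999 of the sum in control, 55.8% ± 1.38 at 24 h and 42.0% ± 2.46 at 48 h (SD, n = 3). Ccl7 supplied 45.6% ± 1.26, 18.9% ± 1.59 and 18.7% ± 0.570, respectively. Ccl5 supplied 6.86% ± 0.389 in control, 4.96% ± 0.465 at 24 h and 18.2% ± 2.18 at 48 h. These shares are descriptions, since a share falls when another member rises. The sums and shares also rest on the gene lengths above. Relative to the number of stretches in the canonical transcript, those lengths were larger for Cxcl1, Ccl5, Ccl2 and Cxcl5 than for Ccl7. This lowers the shares of the former genes beside that of Ccl7.

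**Figure D3:**
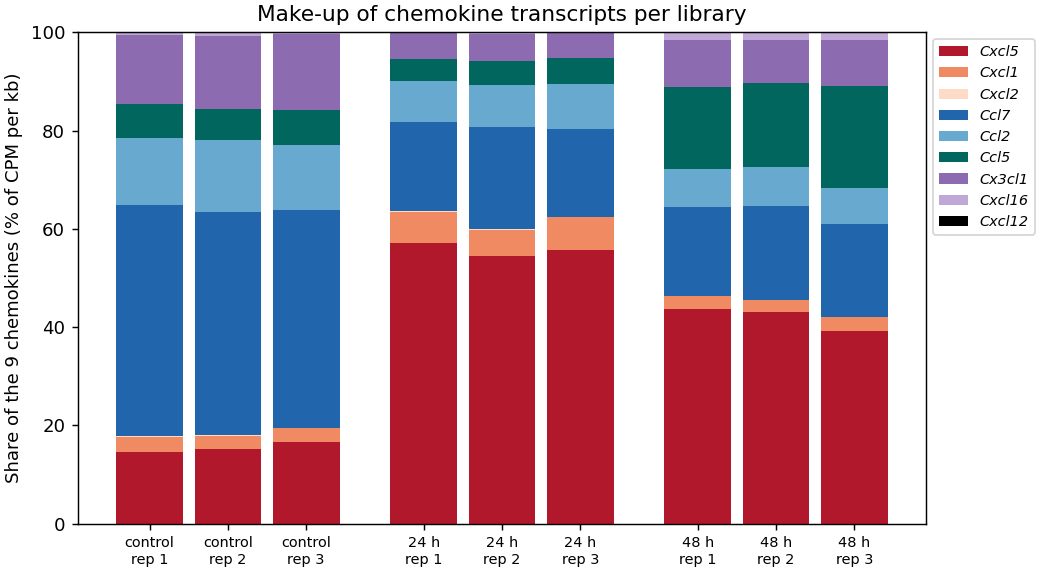
Stacked bars show, for each of the 9 libraries, the percent that each chemokine contributed to the summed CPM per kb of the 9 members. The gene lengths are those of the count table, and the size of a share depends on them. Ccl7 was the main component in control (45.6% on average), Cxcl5 at 24 h (55.8%) and 48 h (42.0%), and the Ccl5 share was highest at 48 h (18.2%).

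The genes whose pattern over the 9 libraries was most like that of a member are given as a description, from 10080 protein-coding genes with a mean of at least 5 CPM. For Cxcl1 these were Cxcl3 (Pearson r = 0.997, log2 CPM), Dhrs1 (0.984) and Lif (0.981). For Cxcl5 they were Tnfrsf9 (0.996), Zc3h12a (0.995) and Ptx3 (0.993), and for Ccl2 they were Id3 (0.992), Smim36 (0.991) and Creb3l1 (0.989). The libraries form only 3 groups, so these values mainly reflect the order and spacing of the group means.

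Of 29 further chemokine ligands, 16 had a read and 5 were tested. At 24 h 1 was higher and 1 lower, beside 3.25% and 2.90% of all tested genes. At 48 h 1 was higher than control, beside 22.0%, and from 24 h to 48 h 1 rose and 2 fell, beside 23.7% and 25.4%, so with so few genes these later counts are no result about the list. Cxcl3 had 26.1, 24.4 and 23.0 CPM in control, 98.9, 81.3 and 101 CPM at 24 h and 25.3, 23.9 and 26.2 CPM at 48 h, so the 24 h libraries stood apart and the others overlapped. It rose at 24 h by 1.93 (log2, adjusted p = 3.66e-11) and fell by 1.90 from 24 h to 48 h (adjusted p = 2.70e-12). Ccl9, a CC ligand of Ccr1, fell at 24 h by 0.70 (log2, adjusted p = 0.000121) and was 0.57 above control at 48 h (log2, adjusted p = 3.62e-05), the reverse order to Ccl2. Ppbp, the precursor of a platelet CXC chemokine, fell by 0.84 from 24 h to 48 h (log2, adjusted p = 0.0148), a call that was lost without 24 h replicate 2 (-0.55, adjusted p = 0.131) or 48 h replicate 2 (adjusted p = 0.0502) and in libraries thinned to the smallest total (-0.66, adjusted p = 0.0820). Cxcl10 and Ccl25 were not called in any comparison.

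The cells carried few reads of the receptors that would answer these ligands. Of 18 signalling receptors, 7 had a read and only Ccr10 was tested. Cxcr2 and Cx3cr1 reached at most 1 count in a library and Cxcr6 at most 6, and Cxcr4, Ccr1 and Ccr2 had none. Ccr10 was higher at 48 h than in control (log2 0.88, adjusted p = 0.0386), a call that was lost without control replicate 1 or 3 or 48 h replicate 2 or 3 (adjusted p up to 0.171), and with DESeq2 or limma voom.

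Scavenging receptors bind chemokines without classical signalling and remove them. Of 5 such genes 2 were tested. Ackr3, which takes up Cxcl12, measured 114 ± 0.840 CPM in control, 171 ± 7.10 CPM at 24 h and 193 ± 6.16 CPM at 48 h (SD, n = 3). It rose at 24 h by 0.59 and stood 0.76 above control at 48 h (log2, adjusted p = 5.27e-07 and 1.15e-09). Ackr2, which clears inflammatory CC chemokines, had 2, 3 and 6 counts in control, 9, 5 and 11 at 24 h and 27, 22 and 25 at 48 h. It was higher at 48 h than in control (log2 2.36, adjusted p = 0.000323) and than at 24 h (1.30, adjusted p = 0.00888), the latter lost without the second 24 h replicate (adjusted p = 0.0564).

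Among 18 genes that process or retain chemokines, 16 were tested. At 24 h 3 rose and 4 fell, beside 3.25% and 2.90% of all tested genes. At 48 h 6 were higher than control and 2 lower, beside 22.0% and 24.4%. From 24 h to 48 h 5 rose and 4 fell, which is near the 23.7% and 25.4% of all tested genes. Adam10, the constitutive sheddase of Cxcl16 and Cx3cl1, was not called in any comparison, with log2 differences of 0.03, 0.06 and 0.03. Adam17, their inducible sheddase, was higher at 48 h by 0.37 (log2, adjusted p = 3.39e-05). Of the syndecans, whose heparan sulfate binds chemokines, Sdc4 and Sdc1 rose at 24 h (log2 0.43 and 0.29). Sdc3 fell by 0.72 at 48 h relative to control, and Sdc2 rose by 0.95 from 24 h to 48 h (log2). Mme, a membrane peptidase, had a difference of -0.97 at 24 h and 0.96 at 48 h (log2, adjusted p = 0.0328 and 0.00107) and rose by 1.93 from 24 h to 48 h. The 24 h call was lost when any library of the compared groups other than control replicate 3 was left out (adjusted p from 0.0508 to 0.137), and with DESeq2, limma voom or a fit of the 2 groups alone. Mmp9, a gelatinase that also trims chemokines, was lower at 48 h than in control (log2 -1.54, adjusted p = 0.0207) and than at 24 h (-2.36). It had at most 21 counts in a library, and its call against control was lost without control replicate 1 or 3 or 48 h replicate 2 (adjusted p up to 0.0805) and in libraries thinned to the smallest total (log2 -0.88, adjusted p = 0.188).

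All 21 listed regulators of chemokine transcription and messenger RNA decay were tested. At 24 h 8 rose and 1 fell, beside 3.25% and 2.90% of all tested genes. At 48 h 13 were higher than control and 2 lower, beside 22.0% and 24.4%, and from 24 h to 48 h 9 rose and 3 fell, beside 23.7% and 25.4%. Cebpd, a transcription factor, rose by 1.41 at 24 h and by 2.25 at 48 h (log2, adjusted p = 2.42e-06 and 1.73e-10), higher still at 48 h than at 24 h by 0.84. Nfkbiz, a nuclear cofactor of NF-kB, rose by 1.12 and 1.41 (log2, adjusted p = 1.43e-09 and 3.88e-12). Zc3h12a, an endonuclease that degrades inflammatory transcripts, rose by 1.22 at 24 h, stood 0.54 above control at 48 h and fell by 0.67 between the times (log2, adjusted p = 1.09e-08, 2.21e-05 and 4.86e-07), in the same order of groups as Cxcl5. Zfp36l1, which promotes messenger RNA decay, was higher at 48 h than in control by 1.09 and than at 24 h by 0.84 (log2). Atf3, a stress-induced transcription factor, rose by 1.10 from 24 h to 48 h (log2, adjusted p = 6.61e-05).

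**Figure D4:**
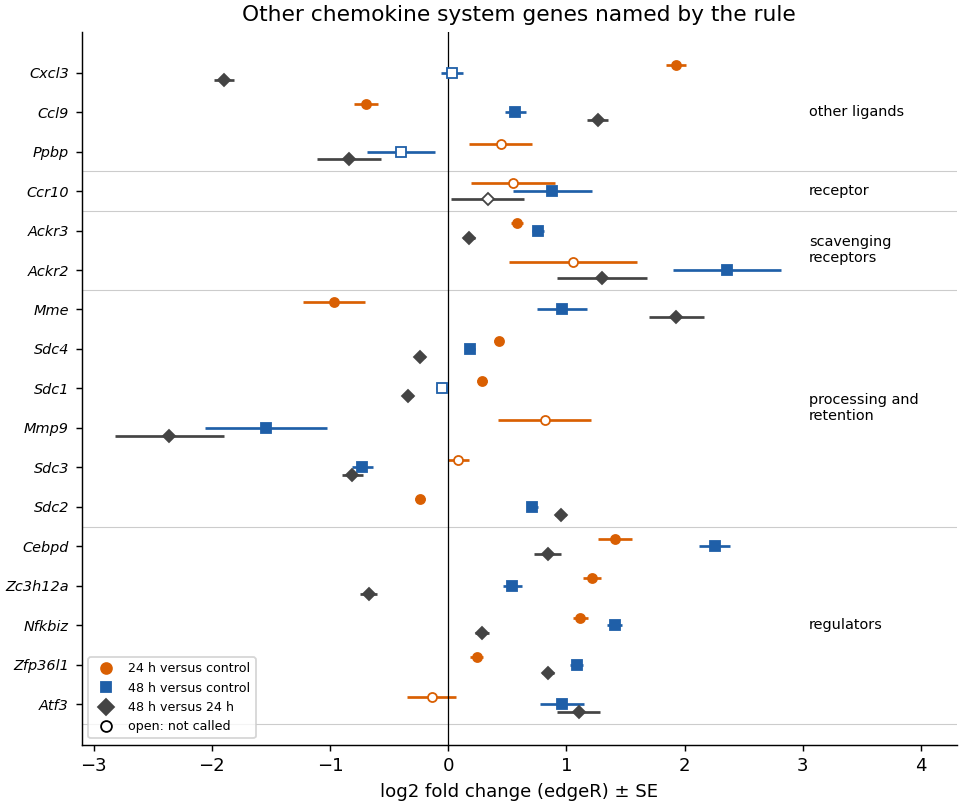
Log2 fold changes ± SE from edgeR of the called genes that changed most in each further list and comparison. They are ligands, a receptor, scavenging receptors, processing genes and regulators. Symbols are as for the members and open where the adjusted p was not under 0.05. Adam10, Adam17, Cxcl10 and Ccl25 are named in the text but not shown. Cxcl3 lay at 1.93 for 24 h versus control and at 0.03 for 48 h versus control, and the regulators Cebpd and Nfkbiz lay to the right of 0 in all comparisons.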

How the data were processed

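RNA of MLO-Y4 cells was sequenced in 9 libraries, grouped by the sample labels. The deposited table holds raw whole-number counts for each gene, made by the authors. Per the labels, reads were aligned to GRCm39 with HISAT2 and counted with featureCounts (2.06 in the processing notes of the submitters). The sources differ on this version, and RSEM is named in the study as well. The use of strand in counting and the handling of reads with several matches are not given in the sources used here, so counts of overlapping genes are uncertain. The gene length, in a column the authors deposited (a number of bases, for Cxcl1 and Cxcl2 the whole gene span), was used for CPM per kb.

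Counts were analysed with edgeR 4.0.16 in R 4.3.3. Genes were kept by filterByExpr (minimum count 10), library sizes were scaled by TMM, and 1 quasi-likelihood fit held all 9 libraries with group as the only term (6 residual degrees of freedom). Benjamini-Hochberg adjustment ran over 13812 genes, and an adjusted p under 0.05 is a call. Standard errors are the absolute log2 fold change divided by the square root of F. Ratios of counts were tested by exact two-sided permutation on the log2 scale. No pair of replicates agreed within sampling noise (chi-square per degree of freedom 2.31 to 8.40). The procedure was tested on simulated data. Alternatives were other scalings, no filter, DESeq2 1.42.0, limma 3.58.1 (voom), fits of 2 groups, thinned libraries, a stricter threshold and leaving out each library.

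The chemokines and gene lists were chosen with earlier results of these data known. The text names all 9 chemokines and, per further list and comparison, up to 3 called genes that changed most on the log2 scale. For Cxcl1, Cxcl5 and Ccl2 it names the 3 genes most like them over the libraries. Adam10, Adam17, Cxcl10, Ccl25, the receptors with few reads and the genes sharing the promoter run were named after their values were seen. Promoters were read from GRCm39 at the canonical start sites of GENCODE, 250 bases before to 50 bases after the start. The starts lay 0 to 18 bases from those in the count table.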

Additional observations from a re-analysis of the deposited data

Results flagged for a closer look

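For each of the 7 tested chemokines the change over control differed between the 24 h and the 48 h group, by the direct test of 48 h against 24 h. The log2 differences (48 h minus 24 h) were -2.26 for Cxcl1, -1.41 for Cxcl5, -1.19 for Ccl2, -1.01 for Ccl7, 0.87 for Ccl5, 1.54 for Cxcl16 and -0.17 for Cx3cl1. Adjusted p-values of the edgeR test ran from 1.77e-11 for Cxcl5 to 0.0279 for Cx3cl1. The call of Cx3cl1 held in only 10 of 17 alternative analyses. The shared control libraries cancel in these differences, and 23.7% of all tested genes were called higher and 25.4% lower in the same test. No unstimulated culture is labelled with either time, so a later response to stimulation and longer culture cannot be told apart. The label of the line also differs between these groups.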

How the results depend on the processing

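The counts of called chemokines in each comparison stayed within 1.5 times their value under all 125 alternative values. Of the alternative values for the change of a single chemokine, 343 kept their direction and their side of the threshold and 9 lost the call. Without a filter, Cxcl2 was called lower at 48 h than at 24 h (log2 -2.72, adjusted p = 0.00540), from at most 14 counts per library. A further 5 changed sign, none of them a call. These were Cxcl16 at 24 h, at 0.11 without the first control replicate, 0.07 without the second, 0.05 without the third 24 h replicate and 0.16 in thinned libraries, and Cxcl1 at 48 h, at 0.014 without the first control replicate. With each library left out in turn, Cxcl16 at 24 h ranged from -0.27 to 0.11 and Cxcl1 at 48 h from -0.15 to 0.014. The calls that were lost were those of Ccl2 at 24 h and of Cx3cl1 between the times. The latter was also lost with library size alone (adjusted p = 0.0876) and with DESeq2 (0.0664). For the further genes 22 alternative values lost the call, among them Mme at 24 h and Mmp9 at 48 h.

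Same-numbered replicates did not deviate together (correlations from -0.049 to 0.077), and 5 of 9 libraries correlated best with their own number, so the numbers were not taken to pair the samples. A fit with the replicate number as a block called 958 genes in place of 849 at 24 h, 6468 in place of 6408 at 48 h and 6810 in place of 6782 between the times. Depth limits Cxcl2, Cxcl12, Ackr2, Mmp9 and the receptors, whose counts were low.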
